A study of Mus musculus with 20 samples.

Results

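Mitochondria, like the bacteria they descend from, start their proteins with formyl-methionine. Methionyl-tRNA formyltransferase (gene Mtfmt) adds the formyl group to the initiator tRNA, peptide deformylase (Pdf) takes it off the new protein, and a mitochondrial methionine aminopeptidase (Metap1d) can then remove the methionine, as Metap1 and Metap2 do in the cytosol. Actinonin, a peptide-like hydroxamate antibiotic, inhibits peptide deformylase and also binds other metallopeptidases, among them leucine aminopeptidase (Lap3), aminopeptidase N (Anpep) and the meprins (Mep1a, Mep1b). These 9 genes were followed in mouse embryonic fibroblasts exposed to actinonin, out of 20145 gene symbols with a probe on the array. Their probes were found by symbol, through the RefSeq accession of each probe. No measured value entered that rule, but the genes were chosen with earlier results of these data known.

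The cells had a Balb/c background with no allele named, and all grew in medium with uridine. The groups were the carrier control, which had received ethanol at 3 µl/ml and is labelled 0 h, and cells exposed to 150 µM actinonin for 6, 24, 48 or 72 h. Each group held 4 samples, described as independent, and each sample was pooled RNA from 4 plates. The labels do not say when the control cells were harvested, so actinonin and time in culture cannot be told apart, and nor can fewer cells of a type and less RNA per cell. The 20 samples lay on 10 Agilent arrays, one in each dye, so that 2 samples of every group carried Cy3 and 2 carried Cy5.

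Slide 1 held 2 arrays with 2 controls and 2 samples of 6 h, and slide 2 held the other 8 arrays. The controls numbered 1 lay on slide 1 and those numbered 2 on slide 2, so the controls' slide and number cannot be told apart. Between 50.8% and 58.7% of spots were well above background in samples of 9 arrays, against 66.4% and 70.5% on array 10, which carried a control and a 48 h sample. All 10 fibroblast markers tested, among them Col1a1, Pdgfra and Vim, were well above background in all 20 samples. Of other cell types, the leukocyte marker Ptprc, the endothelial marker Cdh5 and the epithelial markers Krt8, Vil1 and Slc5a1 were above background in 0 of 20 samples, while Csf1r, Itgam, Cd14, Krt5, Krt14, Pecam1 and Kdr were above it in all 20. Between these lay Lyz2 in 16 samples, Cdhr5 in 7, Adgre1 in 5, Krt18 in 3, Epcam and Emcn in 2, and Cdh1 and Tek in 1. No probe was matched to Cd68. The fibroblast markers moved with actinonin: 3 of 10 fell at 6 h, 9 at 24 h, 9 at 48 h and 8 at 72 h, when 1 rose. Of 5 leukocyte markers tested, 3 fell at 24 h, 2 at 48 h and 2 at 72 h, and of 2 endothelial markers 2 fell at 24 h and 1 at 72 h. Over all features tested, 11.1%, 19.1%, 20.3% and 22.6% were called lower at 6, 24, 48 and 72 h. The fibroblast markers' mean log2 signal lay at 15.48 to 15.52 in control samples, 15.19 to 15.37 at 6 h, 14.94 to 15.09 at 24 h, 14.55 to 14.79 at 48 h and 14.97 to 15.18 at 72 h. The part of this change in the results below was not tested.

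Promoter windows of Mtfmt, Pdf and Metap1d are given here because these are the genes of the mitochondrial pathway itself and because 2 of them, Mtfmt and Metap1d, rose together from 24 h while Pdf did not. The sequences are from RefSeq (GRCm38.p6), 5′ to 3′ on the gene's strand, and hold up to 250 bases before the start site and at most 30 bases of the gene. Both strands were searched for 5 motifs, namely the amino acid response element TGATGNAA, the cAMP response element TGACGTCA, the NRF1 motif, the ETS motif CCGGAAGT and the E-box CACGTG. Capitals mark a match.
Mtfmt, chr9:65435532-65435811, plus strand: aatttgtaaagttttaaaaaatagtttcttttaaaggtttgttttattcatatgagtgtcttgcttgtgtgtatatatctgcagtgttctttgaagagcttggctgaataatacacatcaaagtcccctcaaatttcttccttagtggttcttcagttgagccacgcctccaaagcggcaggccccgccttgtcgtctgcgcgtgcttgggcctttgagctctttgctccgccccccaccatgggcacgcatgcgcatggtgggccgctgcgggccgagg
Pdf, chr8:107048585-107048708, minus strand: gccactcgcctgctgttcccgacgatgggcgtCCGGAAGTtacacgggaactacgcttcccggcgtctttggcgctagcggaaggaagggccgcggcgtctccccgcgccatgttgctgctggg
Metap1d, chr2:71453088-71453310, plus strand: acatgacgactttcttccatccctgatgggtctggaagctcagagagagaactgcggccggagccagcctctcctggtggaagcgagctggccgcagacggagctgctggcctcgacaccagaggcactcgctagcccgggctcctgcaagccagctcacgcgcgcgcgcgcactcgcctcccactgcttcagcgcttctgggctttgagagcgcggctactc
The Pdf window was kept to 94 bases before the start site, so that it holds none of the neighbouring gene Cog8. The Metap1d window begins 250 bases before the start site of RefSeq's promoter table but ends before that site, after 223 bases, because the gene as annotated begins upstream of it and at most 30 of its bases are shown. The Pdf window held 1 match, to the ETS motif, which began 62 bases before the start site, and 2.86% of 32851 promoter windows hold that motif over the same stretch. No match to the other 4 motifs was found in it, and none to any of the 5 in the Mtfmt and Metap1d windows. Over windows like that of Mtfmt, 3.81% of promoters hold the amino acid response element, 1.74% the cAMP response element, 4.41% the NRF1 motif, 3.72% the ETS motif and 6.79% the E-box, and over windows like that of Metap1d the shares are 3.09%, 1.18%, 2.86%, 1.96% and 5.11% in the same order.

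Of the 9 genes, 8 could be tested. Levels below are log2 signals after normalization, with the fitted effects of dye and slide removed, given from low to high within a group. They describe 1 probe in different samples and are not comparable between genes. Changes are log2 differences, actinonin minus carrier control, from 1 limma model of all 20 samples (± SE), and a gene was called at a Benjamini-Hochberg adjusted p under 0.05 over 24250 genes and transcripts. The 4 comparisons share their control samples. All 8 tested genes changed by less than 2-fold at every time.

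**Figure D1:**
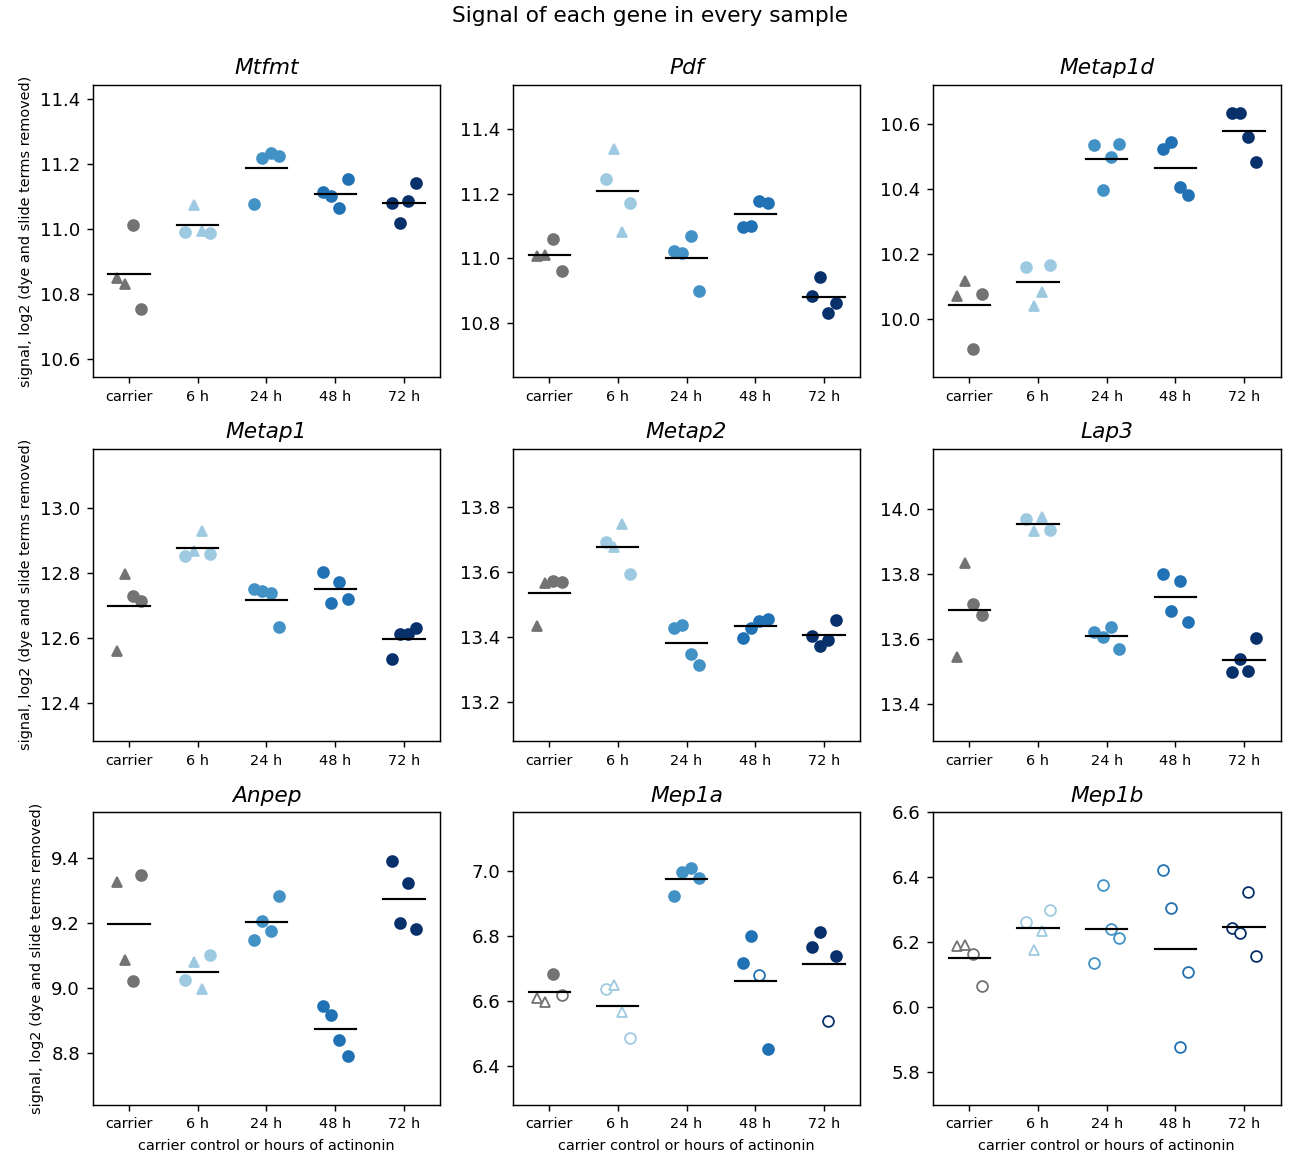
Log2 signal (vertical axes, each 0.9 log2 units high) of the 9 genes in the carrier control and after 6, 24, 48 and 72 h of actinonin. Each point is a sample, triangles are slide 1 and circles slide 2, open symbols were not well above background, and bars are group means (n = 4). Metap1d lay at 10.38 to 10.64 in all samples of 24 to 72 h and at 9.91 to 10.12 in the control.

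The transcript signal of Mtfmt, the gene of the formylating enzyme, had a higher group mean than the control at every time of actinonin. Mtfmt measured 10.75, 10.83, 10.85 and 11.01 in the carrier control, 10.99, 10.99, 10.99 and 11.07 at 6 h, 11.08, 11.22, 11.23 and 11.23 at 24 h, 11.06, 11.10, 11.11 and 11.15 at 48 h, and 11.02, 11.08, 11.09 and 11.14 at 72 h. From 24 h on, every actinonin sample was above every control sample, whereas at 6 h the ranges met because 1 control, the Cy3 sample on array 10, stood above the other 3. Mtfmt rose by 0.33 ± 0.06 at 24 h (1.26-fold, adjusted p = 0.0002445), 0.25 ± 0.05 at 48 h (adjusted p = 0.0008684) and 0.22 ± 0.06 at 72 h (adjusted p = 0.004906). Within slide 2 alone these changes were 0.31, 0.23 and 0.21. The 72 h call was lost without the control sample 2_Cy5 (0.16, adjusted p = 0.05992), where the number and dye are the label's own. The 6 h rise was 0.16 ± 0.05 (adjusted p = 0.02413) and is taken up with the other 6 h changes.

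Pdf, the deformylase that actinonin inhibits, was called against the control at 6 h only in the model of all 20 samples. It fell between 6 h and 24 h and between 48 h and 72 h. Its signals were 10.96, 11.01, 11.01 and 11.06 in the carrier control, 11.08, 11.17, 11.24 and 11.34 at 6 h, 10.90, 11.02, 11.02 and 11.07 at 24 h, 11.10, 11.10, 11.17 and 11.18 at 48 h, and 10.83, 10.86, 10.88 and 10.94 at 72 h. The 6 h and 48 h samples lay above the control and the 72 h samples below it, while 24 h overlapped the control; before dye and slide effects were removed, 6 h and 48 h overlapped it too. Pdf rose by 0.20 ± 0.05 at 6 h (1.15-fold, adjusted p = 0.007495). Its change was -0.01 at 24 h (95% interval -0.14 to 0.12, adjusted p = 0.9404), 0.13 at 48 h (0.01 to 0.24, adjusted p = 0.07437) and -0.13 at 72 h (-0.26 to 0.00040, adjusted p = 0.09505), none of them called. Within slide 2 alone the 48 h change was called (0.13, adjusted p = 0.04432). Step by step, Pdf fell by 0.21 ± 0.06 between 6 h and 24 h (adjusted p = 0.01477) and fell by 0.26 ± 0.06 between 48 h and 72 h (adjusted p = 0.002909). The first of these calls was lost without the 6 h sample 1_Cy3 (adjusted p = 0.08271) and without the 24 h sample 2_Cy5 (adjusted p = 0.05139).

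The genes within 1 kb of Mtfmt and Pdf were also tested. Cog8, which lies next to Pdf and encodes a subunit of a Golgi tethering complex, was called at none of the 4 times, with changes of -0.11, -0.14, -0.18 and 0.02 at 6, 24, 48 and 72 h. Vps4a, also next to Pdf, encodes an ATPase of membrane scission and fell by 0.19 ± 0.06 at 24 h (adjusted p = 0.01443) and by 0.28 ± 0.06 at 72 h (adjusted p = 0.0005305). The 24 h call of Vps4a was lost without the control sample 2_Cy5 (adjusted p = 0.1211). Spg21, next to Mtfmt, rose by 0.52 ± 0.08 at 24 h, 0.39 ± 0.07 at 48 h and 0.30 ± 0.08 at 72 h (adjusted p = 5.12e-05, 0.0002184 and 0.004716), and at 6 h its change was -0.01 (adjusted p = 0.9532). The 72 h call of Spg21 was lost without the control sample 2_Cy3 (0.20, adjusted p = 0.0724).

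Metap1d, the mitochondrial methionine aminopeptidase, had the largest change of the 8 genes tested. It measured 9.91, 10.07, 10.08 and 10.12 in the carrier control, 10.04, 10.08, 10.16 and 10.17 at 6 h, 10.40, 10.50, 10.54 and 10.54 at 24 h, 10.38, 10.41, 10.52 and 10.55 at 48 h, and 10.48, 10.56, 10.63 and 10.64 at 72 h. All 12 samples of 24 to 72 h lay above all 8 samples of 6 h and the control, and 6 h overlapped the control. Metap1d rose by 0.44 ± 0.07 at 24 h (1.36-fold, adjusted p = 3.822e-05), 0.41 ± 0.06 at 48 h (1.33-fold, adjusted p = 1.647e-05) and 0.53 ± 0.07 at 72 h (1.44-fold, adjusted p = 3.44e-06). At 6 h the change was 0.06 (95% interval -0.06 to 0.17, adjusted p = 0.5346). The step from 6 h to 24 h was itself called (0.39 ± 0.07, adjusted p = 0.0002127), whereas 48 h against 24 h (-0.03, adjusted p = 0.8097) and 72 h against 48 h (0.11, adjusted p = 0.195) were not. A second Metap1d probe gave 0.50 ± 0.09, 0.50 ± 0.08 and 0.58 ± 0.09 at 24, 48 and 72 h (adjusted p = 0.0001771, 3.757e-05 and 2.492e-05) and 0.06 at 6 h. Within slide 2 alone the brighter probe rose by 0.50, 0.47 and 0.58.

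**Figure D2:**
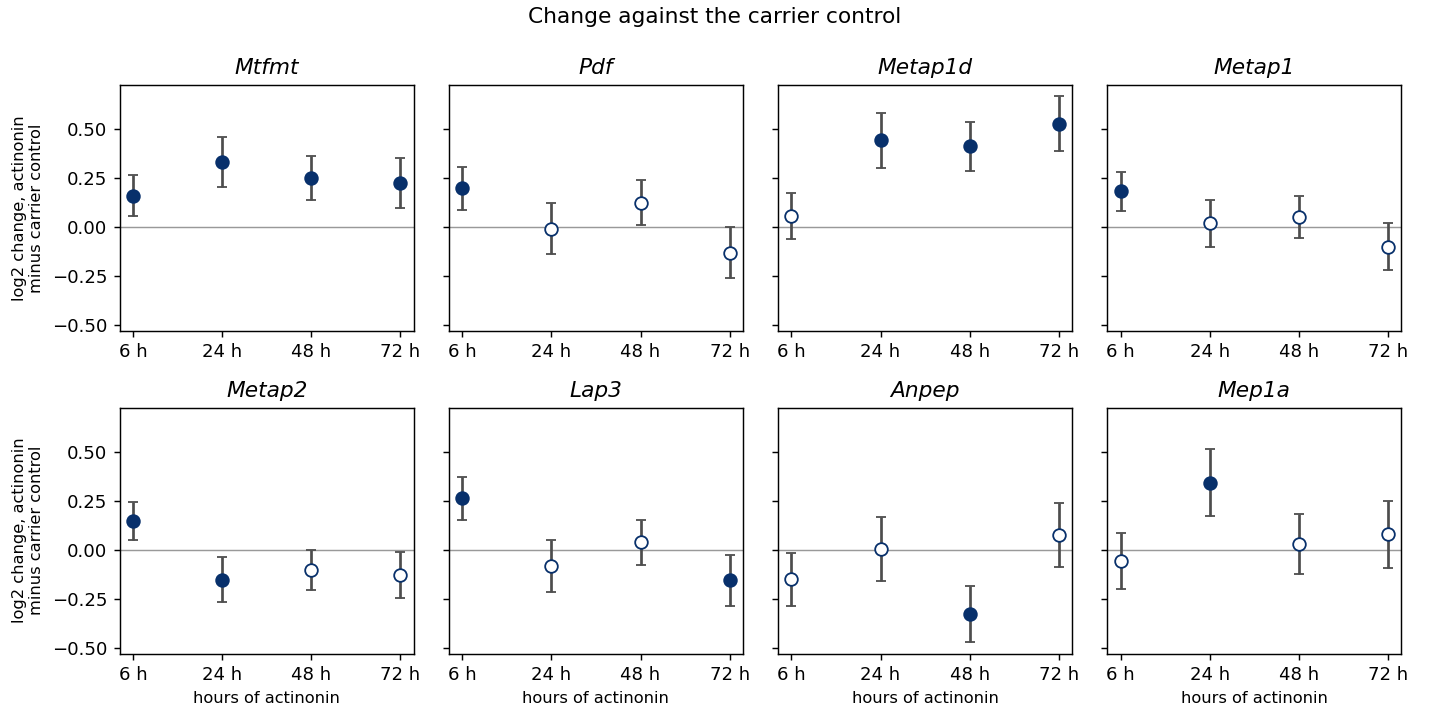
Log2 change, actinonin minus carrier control, of the 8 genes tested at 6, 24, 48 and 72 h. Points are model estimates with 95% intervals and filled points have an adjusted p under 0.05. Metap1d and Mtfmt stay above 0 from 24 h on, and Mtfmt, Pdf, Metap1, Metap2 and Lap3 have filled points above 0 at 6 h.

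The transcripts of the cytosolic methionine aminopeptidases, unlike Metap1d, had no called rise against the control from 24 h on. Metap1 measured 12.56, 12.71, 12.73 and 12.80 in the carrier control and 12.85, 12.86, 12.87 and 12.93 at 6 h, with ranges of 12.63 to 12.75 at 24 h, 12.71 to 12.80 at 48 h and 12.54 to 12.63 at 72 h. With dye and slide effects removed, all 6 h samples were above all controls, but before that the ranges overlapped. The model gave a rise of 0.18 ± 0.05 at 6 h (1.14-fold, adjusted p = 0.007894). The later changes of 0.02, 0.05 and -0.10 were not called. The level then fell by 0.16 ± 0.06 between 6 h and 24 h (adjusted p = 0.03657) and by 0.15 ± 0.05 between 48 h and 72 h (adjusted p = 0.04277). These step calls depended on single samples, being kept with 1 sample left out in 13 of 20 and 7 of 20 cases. Metap1 is printed 10 times on the array, and its spots had an SD of 0.155 to 0.228 log2 units within a sample, so its sample values are means of many spots.

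A second, dimmer Metap1 probe had the same 6 h rise (0.18 ± 0.05, adjusted p = 0.01146) but fell by 0.26 ± 0.06 at 72 h (adjusted p = 0.001448). The 2 Metap1 probes therefore differ at 72 h in whether the gene is called, but not in sign. At 24 h (0.02 and -0.10) and 48 h (0.05 and -0.03) they differed in sign, with neither probe called. Metap2 measured 13.43, 13.57, 13.57 and 13.57 in the carrier control, 13.59, 13.68, 13.69 and 13.75 at 6 h and 13.31, 13.35, 13.43 and 13.44 at 24 h, with ranges of 13.40 to 13.46 at 48 h and 13.37 to 13.45 at 72 h. The 6 h samples all lay above the controls, while the 24 h samples lay below 3 of the 4. Before dye and slide effects were removed, the 6 h and the 24 h samples each overlapped the controls. In the model Metap2 rose by 0.15 ± 0.05 at 6 h (adjusted p = 0.02276), fell by 0.15 ± 0.05 at 24 h (adjusted p = 0.03548), and was not called at 48 h (-0.10, adjusted p = 0.1155) or 72 h (-0.13, adjusted p = 0.06634). Within slide 2 alone it was called at 48 h (-0.14, adjusted p = 0.02391) and 72 h (-0.17, adjusted p = 0.01675).

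The 2 Metap2 probes disagreed. The dimmer one gave -0.06 ± 0.05 at 6 h (adjusted p = 0.4424), -0.17 ± 0.06 at 24 h (adjusted p = 0.02841) and -0.28 ± 0.05 at 48 h (adjusted p = 0.0002395). A 6 h rise of Metap2 thus rests on 1 probe, whereas both probes were lower at 24 h. The 24 h call of the brighter probe was kept in 15 of 20 cases with 1 sample left out, and lost without the controls 2_Cy3 (adjusted p = 0.1327) and 2_Cy5 (adjusted p = 0.1527), the 24 h samples 2_Cy3 (adjusted p = 0.09205) and 2_Cy5 (adjusted p = 0.1011) and the 6 h sample 1_Cy3 (adjusted p = 0.05464).

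**Figure D3:**
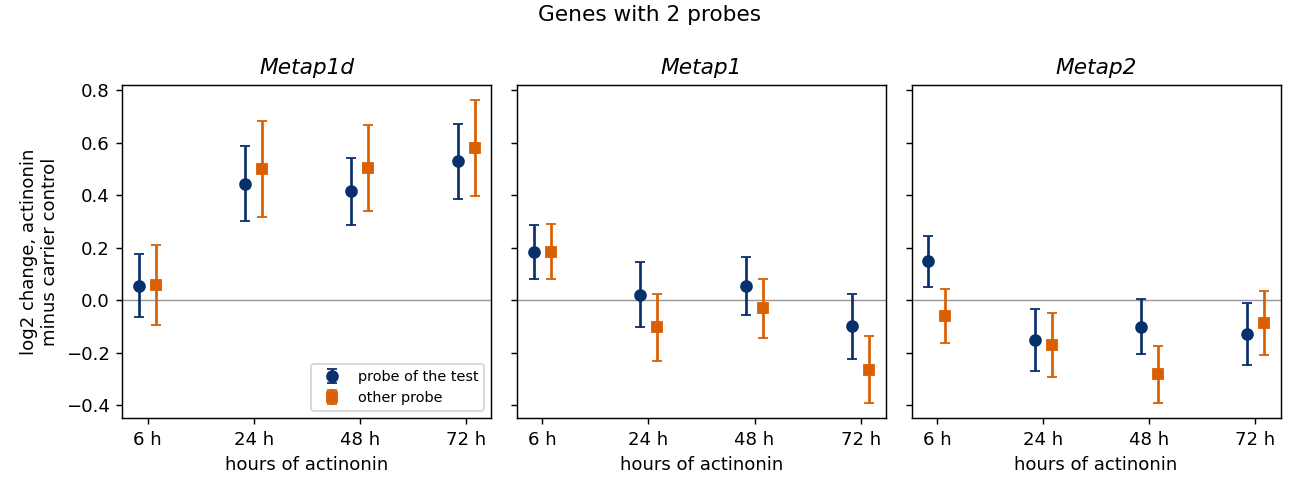
Log2 change, actinonin minus carrier control, at 6, 24, 48 and 72 h for the 3 genes with 2 probes. Circles are the brighter probe, squares the other, and bars 95% intervals. The Metap1d probes lie together, and the Metap2 probes differ in sign at 6 h (0.15 and -0.06). The Metap1 probes differ in sign at 24 h (0.02 and -0.10) and 48 h (0.05 and -0.03) and part at 72 h (-0.10 and -0.26).

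Among the peptidases outside the formyl-methionine pathway, Lap3, a broad cytosolic leucine aminopeptidase, had the largest 6 h change. It measured 13.54, 13.67, 13.71 and 13.83 in the carrier control, 13.93, 13.93, 13.97 and 13.97 at 6 h, 13.57, 13.61, 13.62 and 13.64 at 24 h, 13.65, 13.69, 13.78 and 13.80 at 48 h, and 13.50, 13.50, 13.54 and 13.60 at 72 h. The 6 h samples stood above all other 16 samples. Before dye and slide effects were removed, the 6 h samples (13.61 to 13.96) overlapped the control, 24 h and 48 h samples. The fitted slide effect of Lap3, slide 1 minus slide 2, was -0.33. Lap3 rose by 0.26 ± 0.05 at 6 h (adjusted p = 0.00088), fell by 0.34 ± 0.06 between 6 h and 24 h (adjusted p = 0.0003143) and fell by 0.19 ± 0.06 between 48 h and 72 h (adjusted p = 0.01855). Its changes at 24 h (-0.08, adjusted p = 0.3258) and 48 h (0.04, adjusted p = 0.6252) were not called. At 72 h it fell by 0.15 ± 0.06 (adjusted p = 0.04865), a call kept in only 5 of 20 cases with 1 sample left out, with adjusted p up to 0.1556 without the control sample 2_Cy3. Without dye and slide terms the 72 h change of Lap3 was -0.012 (adjusted p = 0.9446), and within slide 2 alone it was -0.16 (adjusted p = 0.02076). The fall from 48 h to 72 h was lost without the 48 h samples 1_Cy3 (adjusted p = 0.06185) and 2_Cy3 (adjusted p = 0.05898) and the 72 h sample 1_Cy3 (adjusted p = 0.05871).

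Anpep, a membrane aminopeptidase known from the brush border and from fibroblasts, was low at 48 h only. Its signals were 9.02, 9.09, 9.33 and 9.35 in the carrier control, 8.997, 9.023, 9.078 and 9.100 at 6 h, 9.15, 9.17, 9.21 and 9.28 at 24 h, 8.79, 8.84, 8.92 and 8.94 at 48 h, and 9.18, 9.20, 9.32 and 9.39 at 72 h. The 48 h samples lay below all other 16 samples, and the controls fell into a lower and a higher pair that spanned most of the other groups. Before dye and slide effects were removed, the 48 h samples (8.796 to 8.936) overlapped the control and 6 h samples. Anpep fell by 0.33 ± 0.07 at 48 h against the control (0.798-fold, adjusted p = 0.0008001), fell by 0.33 between 24 h and 48 h (adjusted p = 0.005803) and rose by 0.40 between 48 h and 72 h (adjusted p = 0.0005214). The changes of -0.15 at 6 h (adjusted p = 0.1029), 0.01 at 24 h (adjusted p = 0.9633) and 0.08 at 72 h (adjusted p = 0.4475) were not called. The fibroblast markers were also lowest at 48 h, at 14.55 to 14.79. Between 48 h and 72 h 7 of 10 rose, where 12.9% of all features did. The part of these markers in the Anpep result was not tested.

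The meprins, secreted and membrane-bound astacin metallopeptidases of kidney and gut, were at the edge of detection. Mep1b was well above background in 0 of 20 samples and was not tested. Mep1a passed the filter in 11 of 20 samples, namely 1 control, 0 of 4 at 6 h, 4 at 24 h, 3 at 48 h and 3 at 72 h, so it entered the test mainly through actinonin samples. Its 24 h samples measured 6.922, 6.978, 6.996 and 7.009, against 6.60, 6.61, 6.62 and 6.68 in the control, with 6.48 to 6.65 at 6 h, 6.45 to 6.80 at 48 h and 6.54 to 6.81 at 72 h. All 24 h samples lay above all others. In the model Mep1a rose by 0.34 ± 0.08 at 24 h against the control (adjusted p = 0.00241), where only 1 of 4 control samples measured it above background, so the size of the rise is uncertain. It was not called at 48 h (0.03, adjusted p = 0.7967) or 72 h (0.08, adjusted p = 0.4435). Against 6 h, where the probe was not well above background in any sample, it rose by 0.40 ± 0.08 at 24 h in the model (95% interval 0.23 to 0.57, adjusted p = 0.0009667). The size of that rise is uncertain for the same reason. Mep1a fell by 0.31 between 24 h and 48 h (adjusted p = 0.01072). For a bound, each 6 h signal was raised, where lower, to the sample's lowest signal of probes well above background (at most 6.447). None was lower, so the resulting 1.31-fold is a plain difference of means and not a lower limit.

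At 6 h, 5 of the 8 genes tested rose (Lap3, Pdf, Metap1, Mtfmt and Metap2) and none fell, where 24.8% of all features tested were called, 13.7% higher and 11.1% lower. The samples of 6 h and the control did not overlap for 4 of the 8, against 22.9% of features. Their changes of 0.15 to 0.26 were small, and on the normalized scale with no term removed the 6 h and control ranges met for each of the 5. By slide, Lap3 changed by 0.27 on slide 1 and 0.26 on slide 2, Pdf by 0.20 and 0.20, Metap1 by 0.22 and 0.14, Mtfmt by 0.19 and 0.12, and Metap2 by 0.21 and 0.07. All 5 were thus higher on both slides, and with 2 samples a group per slide only Lap3 and Pdf on slide 2 were called (adjusted p = 0.00497 and 0.03294). Metap1d, not called at 6 h, changed by -0.03 on slide 1 and 0.16 on slide 2. A test of the slide by 6 h change called none of the 8 genes, and 0 had an unadjusted p under 0.05 in limma, with 0.0289% of features called.

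Only the Lap3 call held at 6 h with any one sample left out. Without the control 1_Cy3, the calls of Metap1 (0.12, adjusted p = 0.061), Mtfmt (0.15, adjusted p = 0.06985) and Metap2 (0.10, adjusted p = 0.1394) were lost. Without the 6 h sample 1_Cy5, those of Pdf (adjusted p = 0.05492), Mtfmt (adjusted p = 0.09246) and Metap2 (adjusted p = 0.06519) were lost. Mtfmt was also lost without the controls 1_Cy5 (adjusted p = 0.05828) and 2_Cy5 (adjusted p = 0.1133), and Metap2 without the 6 h samples 1_Cy3 (adjusted p = 0.05626) and 2_Cy3 (adjusted p = 0.09135).

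Fewer of the genes were called at later times in this model, an order that turned in other settings. Within slide 2 alone, 2, 4, 5 and 4 of 8 were called at 6, 24, 48 and 72 h, and without dye and slide terms 1, 3, 3 and 3 were. At 24 h, 3 rose (Metap1d, Mtfmt and Mep1a) and Metap2 fell, with 40.3% of features called, 21.2% higher and 19.1% lower, and 3 of 8 did not overlap the control (44.1% of features). At 48 h, Metap1d and Mtfmt rose and Anpep fell, with 41.8% called, 21.5% higher and 20.3% lower, and 4 of 8 did not overlap the control (37.8% of features). At 72 h, Metap1d and Mtfmt rose and Lap3 fell, with 47.7% called, 25.2% higher and 22.6% lower, and 3 of 8 did not overlap the control (49.8% of features). The shares of the 8 genes called at 24, 48 and 72 h (4, 3 and 3 of 8) were thus near the background. From 6 h to 24 h, 7 of 8 were called (32.8% of features, 16.4% in each direction) and 0 of 8 overlapped (39.6% of features did not overlap), although Mtfmt, Metap1, Metap2 and Lap3 overlapped before dye and slide effects were removed. From 24 h to 48 h, 2 were called (12.1%, with 5.77% higher and 6.36% lower) and 4 did not overlap (22%). From 48 h to 72 h, 4 were called (23.2%, with 12.9% higher and 10.3% lower) and 4 did not overlap (29.5%). In the step from 6 h to 24 h Pdf, Metap1, Metap2 and Lap3 fell while Mtfmt, Metap1d and Mep1a rose. The Mtfmt and Metap1 calls of that step were kept in 13 of 20 cases each with 1 sample left out, and that of Pdf in 18 of 20, whereas those of Metap1d, Metap2, Lap3 and Mep1a were kept in all 20.

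Over the 20 samples, Metap1 and Lap3 had the most alike signals among the 8 genes (Pearson r = 0.93), and Metap1d correlated with Mtfmt at 0.62 and with Metap2 at -0.80. These values describe samples that share groups and arrays. Pdf correlated with Metap1 at 0.75 and Lap3 at 0.78, and with Mtfmt at -0.02. Among all named genes tested, the most alike pattern to Metap1d was that of Phkb (0.97), to Lap3 that of Nedd4l (0.98), to Metap2 that of Rgs3 (0.94), to Mtfmt that of Pptc7 (0.93), to Pdf that of Mmachc (0.93), to Metap1 that of Usp31 (0.93), to Anpep that of Ctsd (0.92) and to Mep1a that of Zfyve26 (0.85).

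Transcripts around the supply and use of formyl groups and the supply of mitochondrial methionyl-tRNA were followed in 7 further genes, all tested. At 6 h 5 rose and none fell, and at 24, 48 and 72 h 4 rose and 1 fell at each time. Over all features, 24.8%, 40.3%, 41.8% and 47.7% were called at 6, 24, 48 and 72 h. Those called higher were 13.7%, 21.2%, 21.5% and 25.2% of features in turn. The median change was 0.42, 0.36, 0.29 and 0.40 at 6, 24, 48 and 72 h, against 0.00043, 0.0075, -0.00038 and -0.00089 over all features. Aldh1l2, a mitochondrial formyl-tetrahydrofolate dehydrogenase, which consumes the formyl donor, rose by 0.70 ± 0.08, 1.24 ± 0.10, 1.16 ± 0.09 and 1.43 ± 0.10 at 6, 24, 48 and 72 h (adjusted p = 8.464e-06, 3.056e-08, 1.126e-08 and 2.533e-09). Mthfd2, the mitochondrial methylenetetrahydrofolate dehydrogenase that leads to the formyl donor, rose by 0.87 ± 0.07, 0.47 ± 0.09, 0.79 ± 0.08 and 0.52 ± 0.09 (adjusted p = 1.2e-07, 0.0002908, 2.015e-07 and 7.715e-05). Shmt2, the mitochondrial serine hydroxymethyltransferase, rose by 0.54 ± 0.09, 0.54 ± 0.10, 0.63 ± 0.09 and 0.59 ± 0.10 (adjusted p = 0.0001376, 0.0004214, 1.91e-05 and 0.0001097). At 6 h the Shmt2 change was 0.83 on slide 2 (adjusted p = 8.429e-06) and 0.30 on slide 1 (adjusted p = 0.1884), and that of Aldh1l2 was 0.99 on slide 2 (adjusted p = 2.93e-07) and 0.47 on slide 1 (adjusted p = 0.08442). The gene that fell was Slc25a32, the mitochondrial folate carrier, by 0.36 ± 0.07 at 24 h, 0.41 ± 0.06 at 48 h and 0.53 ± 0.07 at 72 h (adjusted p = 0.0004074, 2.361e-05 and 4.96e-06). Without dye and slide terms the 24 h value was -0.17 (adjusted p = 0.3354).

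**Figure D4:**
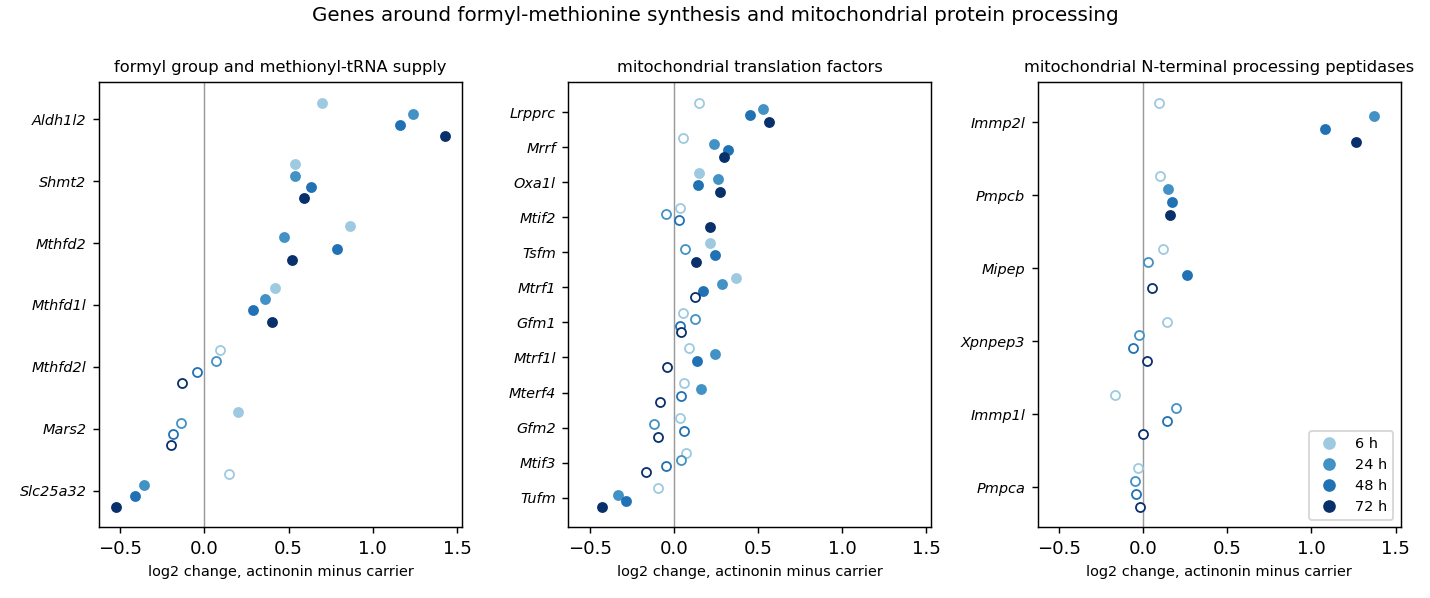
Log2 change, actinonin minus carrier control, of each tested gene in 3 lists around formyl-methionine at 6, 24, 48 and 72 h (light to dark). Filled points have an adjusted p under 0.05. Aldh1l2 (0.70 to 1.43) and, from 24 h, Immp2l (1.08 to 1.37) lie farthest to the right, and Slc25a32 and Tufm lie below 0 from 24 h.

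A list of mitochondrial translation factors and related genes, Lrpprc, Oxa1l and Mterf4 among them, held 12 genes. Of these 3 rose and none fell at 6 h, 6 rose and 1 fell at 24 h and at 48 h, and 5 rose and 1 fell at 72 h. The medians were 0.07, 0.14, 0.10 and 0.09. The shares of all features called were 24.8%, 40.3%, 41.8% and 47.7% in turn, so the count at 6 h was near the background. Lrpprc, which stabilizes mitochondrial mRNA, rose by 0.53 ± 0.07 at 24 h, 0.45 ± 0.07 at 48 h and 0.57 ± 0.07 at 72 h (adjusted p = 1.655e-05, 1.987e-05 and 4.733e-06). Mtrf1, a mitochondrial release factor, rose by 0.37 ± 0.05 at 6 h, 0.28 ± 0.05 at 24 h and 0.17 ± 0.05 at 48 h (adjusted p = 8.454e-06, 0.0003986 and 0.00712). The 48 h call of Mtrf1 was lost without the control sample 2_Cy3 (adjusted p = 0.06743). Tufm, the mitochondrial elongation factor Tu, fell by 0.33 ± 0.07 at 24 h, 0.28 ± 0.06 at 48 h and 0.43 ± 0.07 at 72 h (adjusted p = 0.000755, 0.0008877 and 4.419e-05). Without dye and slide terms the 24 h and 48 h calls of Tufm were lost (-0.20 and -0.19, adjusted p = 0.2099 and 0.1597), the 24 h call also with loess alone (adjusted p = 0.06005).

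Peptidases that cut mitochondrial presequences and intermediates formed a list of 6 tested genes. None was called at 6 h in limma, although 4 had an unadjusted p under 0.05, 2 rose at 24 h, 3 at 48 h and 2 at 72 h, and none fell, with medians of 0.10, 0.09, 0.16 and 0.04. Among all features, 24.8%, 40.3%, 41.8% and 47.7% were called at 6, 24, 48 and 72 h. Immp2l, a catalytic subunit of the inner membrane peptidase, rose by 1.37 ± 0.06 at 24 h, 1.08 ± 0.05 at 48 h and 1.26 ± 0.06 at 72 h (2.59-fold, 2.12-fold and 2.40-fold; adjusted p = 1.625e-11, 4.513e-11 and 1.956e-11). Pmpcb, a subunit of the matrix processing peptidase, rose by 0.15 ± 0.05, 0.17 ± 0.04 and 0.16 ± 0.05 (adjusted p = 0.02573, 0.003805 and 0.01257). The Pmpcb calls were lost without the control 2_Cy5 at 24 h (adjusted p = 0.1213) and 72 h (adjusted p = 0.07065), and at 24 h also without the 24 h samples 1_Cy3 (adjusted p = 0.05643) and 2_Cy3 (adjusted p = 0.07228).

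Enzymes that acetylate or myristoylate protein N-termini in the cytosol formed a list of 13, of which 12 were tested. Of these 4 rose and 1 fell at 6 h, 1 rose and 2 fell at 24 h and at 48 h, and 1 rose and 3 fell at 72 h, with medians of 0.11, 0.02, -0.07 and -0.13. The shares of all features called were 24.8%, 40.3%, 41.8% and 47.7% in turn, and those of this list were lower from 24 h on. The N-myristoyltransferases fell, Nmt1 by 0.34 ± 0.07, 0.34 ± 0.06 and 0.43 ± 0.07 and Nmt2 by 0.52 ± 0.10, 0.40 ± 0.09 and 1.07 ± 0.10 at 24, 48 and 72 h (adjusted p = 0.0004385, 9.924e-05 and 2.567e-05 for Nmt1, and 0.000375, 0.001096 and 7.769e-08 for Nmt2). Naa50, an N-terminal acetyltransferase, rose by 0.41 ± 0.09, 0.39 ± 0.08 and 0.47 ± 0.09 at the same times (adjusted p = 0.001022, 0.0005111 and 0.0002274). Without dye and slide terms Nmt1 was not called, at -0.05, -0.14 and -0.14 (adjusted p = 0.8725, 0.5127 and 0.5372). The 72 h value of Naa50 was 0.11 (adjusted p = 0.1272) with its probes averaged.

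Of 13 other aminopeptidases, 11 were tested. At 6 h 1 rose and 1 fell, at 24 h 2 rose and 3 fell, at 48 h 3 rose and 5 fell, and at 72 h 3 rose and 4 fell, with medians of 0.04, -0.08, -0.05 and -0.09. Called shares over all features were 24.8%, 40.3%, 41.8% and 47.7% at 6, 24, 48 and 72 h. Xpnpep2, a membrane aminopeptidase P, rose by 0.66 ± 0.06 at 24 h, 0.49 ± 0.06 at 48 h and 1.54 ± 0.06 at 72 h (2.91-fold at 72 h; adjusted p = 1.726e-07, 1.15e-06 and 2.299e-12). Lnpep, a membrane aminopeptidase that cleaves oxytocin, fell by 0.50 ± 0.08, 0.50 ± 0.07 and 0.80 ± 0.08 (adjusted p = 8.558e-05, 1.823e-05 and 2.243e-07). Of 4 other astacins, the family of the meprins, the 2 tested both fell at 24, 48 and 72 h. They were Tll1, a tolloid-like peptidase, with changes of -1.52 ± 0.14, -1.11 ± 0.13 and -1.84 ± 0.14 (adjusted p = 1.553e-07, 1.121e-06 and 7.514e-09), and Bmp1, a procollagen peptidase, with changes of -0.34 ± 0.07, -0.41 ± 0.06 and -0.48 ± 0.07 (adjusted p = 0.0008326, 3.546e-05 and 1.806e-05). Fibroblast markers, which include collagens, fell at the same times by a median of 0.49, 0.96 and 0.41, and their part in the astacin result was not tested.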

How the data were processed

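Amplified RNA was labelled with Cy3 or Cy5 and hybridised to Agilent two-colour arrays. The deposited intensity values are unnormalized median brightnesses of each spot and its background, read per the file headers by Feature Extraction, version 10.7.3.1 on slide 1 and version 11.0.1.1 on slide 2, so the effects of slide, scan and software are not separable. The authors also deposited a matrix of log2 values, used as an alternative. R 2.15 and limma are named in the submitters' processing notes.

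Median signals were used here, although the plan named means. They were corrected by normexp (offset 50) and normalized by loess within arrays and Aquantile between arrays, with limma 3.58.1 in R 4.3.3, which removes a shift common to most genes. Of 55681 probes, 26582 were named through RefSeq (GRCm38.p6) by the accessions in slide 1's design, which differ from slide 2's for 2677 probes but for none of the 9 genes. Probe positions, given on mm9 in the file headers, were not used. A probe had to be well above background in 4 of 20 samples, and the brightest one stood for its gene.

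The model had terms for group, dye and slide and the array as random block (correlation 0.25), with moderated two-sided tests (13 residual and 4.48 prior degrees of freedom). Levels have the fitted dye term centred and slide 1 set to slide 2. Alternatives in background correction, scaling, filter, probes, covariates and samples were run, and the method was tested on simulated data. Whether samples of a group began as separate cultures is not stated, so the spread behind a p-value may be technical. Precision is limited by 4 samples a group. The genes and lists were chosen with earlier results of these data known. From each list, up to 3 genes per time with the smallest adjusted p among those called could be named, beside the 9 genes, neighbours within 1 kb and, per gene, the most alike of 3 genes. The use of the other probe was chosen after seeing the data.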

Additional observations from a re-analysis of the deposited data

Results flagged for a closer look

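In 4 of 45 groups of 4 samples (9 genes in 5 groups), 1 sample stood apart by a gap, relative to the group's range, above Dixon's 95% critical value, where chance flags about 1 group in 20. The 6 h sample 1_Cy5 had a Mtfmt log2 signal of 11.07, above 10.99 in the nearest other sample, and the Mtfmt call at 6 h was lost without it (adjusted p = 0.09246). The 24 h sample 1_Cy3 had a Mtfmt signal of 11.08, below 11.22 in the nearest, and the 24 h call of Mtfmt was kept without it. The 24 h sample 2_Cy5 had a Metap1 signal of 12.63, below 12.74 in the nearest, and without it the call of Metap1 between 6 h and 24 h was lost (adjusted p = 0.1129). The control sample 1_Cy3 had a Metap2 signal of 13.43, below 13.57 in the nearest, and without it the 6 h call of Metap2 was lost (adjusted p = 0.1394). No cause of these gaps was tested.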

How the results depend on the processing

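Across the alternatives that leave out no single sample, the 8 genes' changes gave 813 values, of which 710 kept direction and call, 26 stayed uncalled but changed sign, 62 lost the call, 13 gained one and 2 changed sign with a call on one side. Leaving out each sample gave 1120 values, of which 1034 kept both, 13 stayed uncalled but changed sign, 63 lost the call and 10 gained one. The calls of Metap1d at 24, 48 and 72 h, of Mtfmt at 24 and 48 h and of Anpep at 48 h against the control were kept in all alternatives run. The sign changes that involved a call were both of Metap2 with its other probe, -0.060 (adjusted p = 0.4424) at 6 h and 0.20 (adjusted p = 0.01292) from 48 h to 72 h. In what follows, members are the 8 genes tested and genes are all 24250 features. Without dye and slide terms, genes called were 3116 at 6 h (6022 in the main model), 5964 at 24 h (9766), 4410 from 6 h to 24 h (7963), 530 from 24 h to 48 h (2941) and 2013 from 48 h to 72 h (5624), and members called were 1 at 6 h and 2 from 48 h to 72 h. With loess alone, genes called were 6106 at 24 h, 4436, 333 and 1782 over the 3 steps in turn, and members called were 2 at 24 h and 4, 0 and 1 over the steps. Higher calls then made up 27.9% of calls from 24 h to 48 h (47.6% in the main model) and 69.7% from 48 h to 72 h (55.5%). At 6 h, slide 1 alone called 298 genes, 75.2% of them higher (55.2% in the main model), and 0 members (limma, with the array correlation taken from all arrays), while 1 member had an unadjusted p under 0.05. With loess alone 2 members did from 24 h to 48 h. Slide 2 alone called 2 members at 6 h and 5 at 48 h. With the 8 samples of a comparison only, 2745 genes and 1 member were called at 6 h, 1 member at 72 h and 4 from 6 h to 24 h. Averaged probes gave 5 members at 72 h, and the authors' series matrix 1 from 24 h to 48 h. Genes called for slide by 6 h change were 7 in the main model, 1 without background correction, 18 with quantile scaling and 14 with the series matrix. With 1 sample left out, members called ranged from 2 to 6 at 6 h, 1 to 5 at 72 h, 4 to 7 from 6 h to 24 h and 2 to 4 from 48 h to 72 h, and genes called from 1781 to 3301 from 24 h to 48 h. The causes were not tested. Replicate labels were checked by correlating samples of different groups with the same label, with group, dye and slide effects removed. Of 40 such pairs, 1 correlated above 0.1 (range -0.55 to 0.178). Samples of a group with the same number in the other dye were not compared. Whether they share RNA was not tested, and leaving out 1 sample keeps the other. A replicate block called 6227 genes and 5 members at 6 h, and 6 members from 6 h to 24 h, and its other counts of members were those of the main model. The dim Mep1a and Mep1b probes limit what can be said of the meprins.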
